A study of Homo sapiens with 8 samples.

Results

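Glycolytic enzymes, regulators of pyruvate use and hypoxia-responsive genes were examined in H1 human embryonic stem cells that carry a SETD7 knockout or are wild type. The 36 genes were taken by name from a list, out of 14277 gene symbols present in either of the deposited tables. That list was chosen with earlier results of these data known. All 36 were in the day 0 table, and 35 were in the day 2 table; ANKRD37 was not analysed here at day 2. All 35 passed the filter on low counts.

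The RNA-seq libraries fall into 4 groups of the H1 line: SETD7 knockout at day 2 (3 libraries), wild type at day 2 (3 libraries), SETD7 knockout at day 0 (1 library) and wild type at day 0 (1 library). SETD7 is a lysine methyltransferase that acts on histone H3 and on other proteins. H1 cells were grown in mTESR medium with antibiotics, and differentiation towards blood was induced with a custom medium and factors; the labels give this treatment for the day 0 libraries too. They do not say how the knockout was made or whether it is 1 clone. Nor do they tie replicates to different cultures, and the p-values therefore rest on library-to-library spread that may be technical.

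Glycolysis turns glucose into pyruvate in the cytosol. Pyruvate is then either reduced to lactate by lactate dehydrogenase or carried into mitochondria, where the pyruvate dehydrogenase complex turns it into acetyl-CoA and pyruvate dehydrogenase kinases switch that complex off. The hypoxia-inducible factor HIF joins an oxygen-labile subunit such as HIF1A to the stable partner ARNT; when oxygen is present, prolyl hydroxylases of the EGLN family mark HIF1A for VHL, which directs its destruction. Many glycolytic genes are HIF targets, and human pluripotent stem cells are known for high glycolytic activity.

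SETD7 mRNA was 32.9, 28.9 and 33.7 CPM (counts scaled to library size) in the knockout libraries at day 2, against 54.8, 56.2 and 55.6 CPM in the wild-type libraries. At day 0 it was 1.48 FPKM in the knockout and 3.53 FPKM in the wild type. The day 2 totals ran from 27880068 to 39553614 counts; the depth at day 0 is unknown. Within genotypes, knockout replicate 1 differed from the other 2 knockout libraries by a chi-square per degree of freedom of 8.98 and 6.11, against 3.05 between those 2, and wild-type replicate 1 stood apart on the second principal component (11.7, against −5.68 and −6.91 in the other 2). Leaving out either library still gave 13 called members at day 2. At day 0 the 8 pluripotency markers summed to 1840 FPKM in the knockout and 1650 FPKM in the wild type. Of these 8, 3 were at least 1.2-fold higher in the knockout and 2 were lower by that rule. The widest gap was in DNMT3B, at 527 FPKM in the knockout and 318 FPKM in the wild type. In the same order, POU5F1 was lower at 113 and 149 FPKM, and SOX2 at 113 and 157 FPKM. At day 2 the 7 measured pluripotency markers (2 higher, 1 lower) summed to 2920 to 2950 CPM in the knockout and 2750 to 2760 CPM in the wild type; DNMT3B and TDGF1 were higher and NANOG was lower. The 9 measured primitive streak and mesoderm markers (4 higher, 2 lower) summed to 6890 to 6950 CPM in the knockout and 6470 to 6550 CPM in the wild type. APLNR, MIXL1, KDR and MESP2 were higher, and T and HAND1 were lower. Other cell types' markers also differed at day 2. The 4 measured endoderm markers (1 higher, 1 lower) summed to 8540 to 8650 CPM in the knockout and 7540 to 7660 CPM in the wild type. Nearly all of that sum was CER1, at 8432 CPM in the knockout and 7482 CPM in the wild type, whereas SOX17 was lower, at 102 CPM in the knockout and 151 CPM in the wild type (log2 fold change −0.56, edgeR adjusted p 2.52e-13). The 4 measured fibroblast markers (2 higher, 1 lower) summed to 488 to 516 CPM in the knockout and 353 to 372 CPM in the wild type. Most of that gap was COL1A2, at 360 CPM in the knockout and 246 CPM in the wild type, whereas LUM was lower. At day 0 the 5 fibroblast markers present summed to 162 FPKM in the knockout and 172 FPKM in the wild type. The 2 measured blood and endothelial markers (1 lower) summed to 26.3 to 27.2 CPM in the knockout and 27.2 to 32.0 CPM in the wild type. Most of that sum was RUNX1, which did not pass. ETV2 was lower, at 1.135 CPM in the knockout and 1.847 CPM in the wild type (edgeR adjusted p 0.0399). The 1 measured neural marker of 4, NES, was higher, at 556 to 604 CPM in the knockout and 514 to 536 CPM in the wild type. SOX2, FOXA2, PAX6, SOX1, TAL1, PECAM1 and CD34 were not analysed here at day 2. The part of cell composition in the results was not tested, and in bulk RNA fewer cells of a type and less RNA per cell cannot be told apart.

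HIF binds DNA at a short core, ACGTG or GCGTG. That core was searched on both strands in RefSeq promoter windows (build GRCh38.p14) that run from 250 bases before to 50 after each annotated start, for the 33 genes that had a window. At least 1 window held it in 30 of the 33 (90.9%), against 71.2% of 9075 genes tested at day 2 and 52.4% of all 27305 genes with a window. The ACGTG form alone was in 22 of the 33 (66.7%), against 32.8% and 24.9%. No core was found in the windows of PGAM1, ARNT and EGLN3. A match is a description of the letters and not evidence of binding, and genes with several annotated starts had more chances of a match. The stretches printed here show cores (5 of the 6 in the LDHA window and 3 of the 4 in the DDIT4 window) of the 4 genes that passed the day 2 test with a change of at least 1.2-fold (PDK1, ENO2, BNIP3 and ADM) and of 3 genes with large ratios at day 0 (LDHA, ANKRD37 and DDIT4). They are written 5′ to 3′ on the gene's strand, as 30 bases around the cores or as the bases before the first annotated exon. Capitals mark each core in either direction, so CACGT and CACGC are the reverse strand forms and CACGTG holds a core on both strands.
PDK1, chr2:172556060-172556089, plus strand: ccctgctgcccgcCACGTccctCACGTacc
LDHA, chr11:18394313-18394387, plus strand: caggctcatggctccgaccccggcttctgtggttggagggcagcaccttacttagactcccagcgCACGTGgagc
LDHA, chr11:18394470-18394499, plus strand: gactcaCACGTGggttcccgCACGTccgcc
BNIP3, chr10:131982014-131982173, minus strand: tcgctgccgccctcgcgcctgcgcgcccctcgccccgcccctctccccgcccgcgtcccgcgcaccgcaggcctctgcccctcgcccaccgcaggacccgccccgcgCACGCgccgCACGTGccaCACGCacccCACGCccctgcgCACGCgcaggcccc
ENO2, chr12:6914449-6914478, plus strand: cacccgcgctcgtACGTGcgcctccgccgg
ADM, chr11:10304959-10304988, plus strand: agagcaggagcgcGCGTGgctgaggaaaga
ANKRD37, chr4:185396676-185396705, plus strand: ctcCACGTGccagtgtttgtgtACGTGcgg
DDIT4, chr10:72273674-72273919, plus strand: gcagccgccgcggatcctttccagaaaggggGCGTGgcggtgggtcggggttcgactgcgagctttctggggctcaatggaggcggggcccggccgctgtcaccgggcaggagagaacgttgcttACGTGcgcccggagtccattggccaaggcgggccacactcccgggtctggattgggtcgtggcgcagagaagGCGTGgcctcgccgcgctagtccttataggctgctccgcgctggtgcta

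The day 2 comparison set SETD7 knockout against wild type after induction of differentiation. The genes did not move as a block: 4 rose in the knockout (PDK1, ENO2, BNIP3 and PFKP) and 9 fell (ADM, EGLN3, ALDOA, DLAT, HIF1A, GPI, TPI1, GAPDH and LDHA). Those 13 of 35 (37.1%) passed edgeR's quasi-likelihood test at an adjusted p under 0.05, against a background of 23.3% of 11475 genes, of which 12.3% were higher and 11.0% lower in the knockout. All 3 knockout libraries lay above all 3 wild-type libraries for 4 members (18.9% of all genes) and below them for 12 (18.8% of all genes), so 16 of 35 did not overlap, against 37.7% of all genes. Abundant genes were called more often: where the average over libraries reached 100 CPM, a level chosen after the values were seen, 35.0% were called (13.6% higher, 21.4% lower), and 1 of the 20 members at that level rose while 8 fell. With loess offsets for GC content and exon length, the calls were 4 higher and 11 lower among the members, and 1273 higher and 2029 lower among all genes, against 1406 higher and 1262 lower without them. The size of the change, taken without its sign, had a median of 0.104 on the log2 scale for the 35 members and 0.0955 for all genes. PDK1, ENO2, BNIP3 and ADM passed with a change of at least 1.2-fold, which 9.07% of all genes did.

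**Figure D1:**
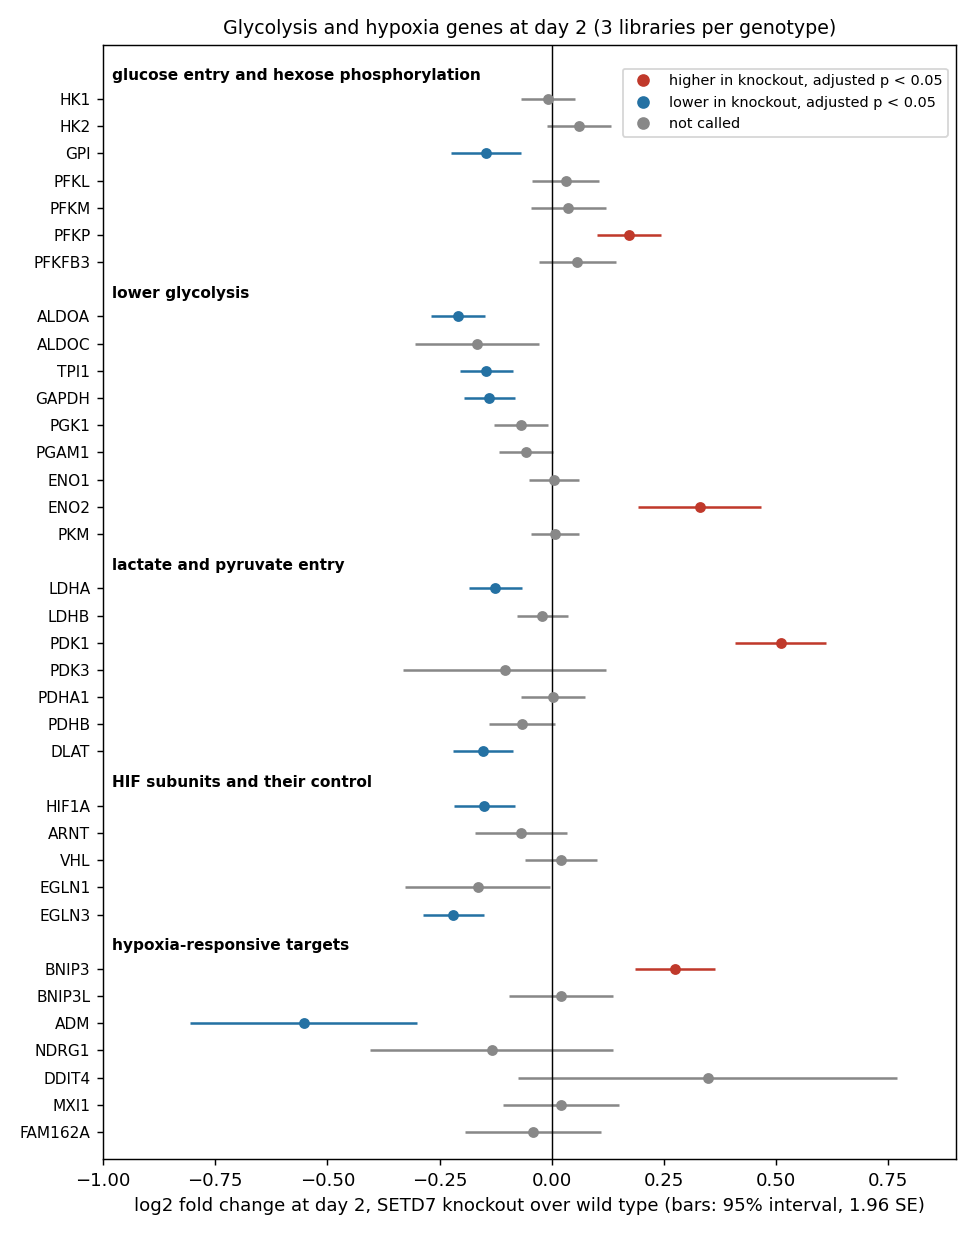
Log2 fold changes at day 2, knockout over wild type, for the 35 measured genes in 5 groups by role (points, edgeR estimates; bars, 95% intervals; red, higher; blue, lower; grey, not passing; 3 libraries per genotype). PDK1 lies furthest to the right at 0.51 and ADM furthest to the left at −0.55, while PKM and ENO1 lie at 0.01.

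In the preparatory steps, which trap glucose and phosphorylate it further, 1 of 7 genes rose and 1 fell. Over all genes, 12.3% were called higher and 11.0% lower, and the counts for this and the other roles below rest on few genes. PFKP, the platelet-type phosphofructokinase (chr10:3066333-3137712, plus strand, GRCh38), measured 178, 168 and 167 CPM in the knockout libraries, against 148, 155 and 153 CPM in the wild type. All 3 knockout libraries were above all 3 wild-type libraries, and PFKP rose by 0.17 on the log2 scale (SE 0.036; 0.000577 as adjusted p in edgeR), a fold of 1.13 (95% interval 1.07 to 1.18). GPI, the isomerase that follows hexokinase, was lower in every knockout library at 104, 111 and 112 CPM, against 120, 119 and 124 CPM in the wild type. It fell by 0.15 on the log2 scale (SE 0.040, edgeR adjusted p 0.00627), but the edgeR adjusted p was 0.0546 without wild-type replicate 3 (range over all settings 4.59e-05 to 0.0546). The hexokinases HK1 and HK2, the phosphofructokinases PFKL and PFKM, and PFKFB3, which makes the main allosteric activator of phosphofructokinase, had log2 fold changes from −0.01 to 0.06 with overlapping libraries and did not pass.

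In lower glycolysis, which yields ATP and pyruvate, 3 of 9 genes fell and 1 rose. ALDOA, the aldolase that splits the sugar into a pair of triose phosphates (chr16:30064164-30070457, plus strand), was at 653, 680 and 698 CPM in the knockout, against 774, 787 and 785 CPM in the wild type. The libraries did not overlap, and ALDOA fell by 0.21 on the log2 scale (SE 0.031, edgeR adjusted p 3.37e-06). The next enzymes, TPI1 (623, 630 and 648 CPM in the knockout, against 696, 707 and 700 CPM in the wild type) and GAPDH (1838, 1889 and 1882 CPM in the knockout, against 2005, 2095 and 2077 CPM in the wild type), also fell, by 0.15 and 0.14 on the log2 scale (edgeR adjusted p 0.000393 and 0.000462). GAPDH is widely used as a loading control, and here all its knockout libraries were below all wild-type ones. ENO2, the neuron-enriched enolase (chr12:6913745-6923698, plus strand), moved the other way with 29.1, 29.8 and 32.8 CPM in the knockout, against 22.0, 26.0 and 24.6 CPM in the wild type. Its libraries did not overlap, and it rose by 0.33 on the log2 scale (SE 0.070, edgeR adjusted p 0.000569), a fold of 1.26 (95% interval 1.14 to 1.38).

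The enzymes of this stage with the highest CPM were closest to wild type. Per kb of exon the most abundant was GAPDH, which fell (627 CPM per kb in the knockout, 691 in the wild type). ENO1, the main enolase, averaged 2618 ± 28.1 CPM in the knockout and 2608 ± 59.6 CPM in the wild type (SD, n = 3 each), with a 95% interval for the fold of 0.966 to 1.04. PKM, the pyruvate kinase that ends the pathway, averaged 3837 ± 16.1 CPM in the knockout and 3815 ± 44.8 CPM in the wild type, with an interval of 0.969 to 1.04. PGK1, PGAM1 and ALDOC had negative log2 fold changes of −0.07, −0.06 and −0.17 and did not pass (edgeR adjusted p 0.11, 0.186 and 0.0837). PGK1 and ALDOC libraries did not overlap between genotypes, and both genes passed edgeR with the GC and length offsets (adjusted p 0.0149 and 0.0311; ranges over all settings 0.0149 to 0.28 and 0.0311 to 0.349). Together the 17 enzymes from hexokinase to lactate dehydrogenase held 1.424, 1.435 and 1.441% of all counts in the knockout libraries and 1.438, 1.477 and 1.471% in the wild type, ranges that overlap slightly.

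At the branch point of pyruvate, PDK1 rose while LDHA and DLAT fell. PDK1, a kinase that inactivates pyruvate dehydrogenase and a well-known HIF target (chr2:172555373-172608669, plus strand), was at 64.2, 59.5 and 64.4 CPM in the knockout, against 45.1, 43.9 and 43.1 CPM in the wild type. Every knockout library was far above every wild-type library, and the rise of 0.51 on the log2 scale (SE 0.052; 3.04e-09 as adjusted p in edgeR) corresponds to a fold of 1.42 (95% interval 1.33 to 1.53). This was the gene with the smallest p of the 35, and its log2 fold change stayed between 0.48 and 0.55 in all settings run. LDHA, which reduces pyruvate to lactate, was at 884, 942 and 937 CPM in the knockout, against 996, 1003 and 1015 CPM in the wild type; it fell by 0.13 on the log2 scale (SE 0.030, edgeR adjusted p 0.00235) with no overlap. DLAT, the acetyltransferase core of pyruvate dehydrogenase, was at 182, 183 and 172 CPM in the knockout, against 198, 201 and 199 CPM in the wild type, and fell by 0.15 on the log2 scale (SE 0.034, edgeR adjusted p 0.00102). LDHB, the kinase PDK3 and the first-subunit genes PDHA1 and PDHB had overlapping libraries and log2 fold changes from −0.10 to 0.0030 that did not pass.

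Among the HIF subunits and their controllers, 2 of 5 fell and the other 3 did not pass. HIF1A, the oxygen-regulated subunit (chr14:61695513-61748259, plus strand), was at 258, 278 and 270 CPM in the knockout, against 310, 298 and 286 CPM in the wild type, and fell by 0.15 on the log2 scale (SE 0.035, edgeR adjusted p 0.00143). EGLN3, a prolyl hydroxylase that is itself induced by HIF (chr14:33924231-34462774, minus strand), was at 156, 160 and 159 CPM in the knockout, against 183, 190 and 181 CPM in the wild type. It fell by 0.22 on the log2 scale (SE 0.035, edgeR adjusted p 1.06e-05), and neither gene overlapped between genotypes. ARNT (−0.07), VHL (0.02) and EGLN1, the main oxygen sensor of the family (−0.16), did not pass edgeR (adjusted p 0.371, 0.765 and 0.149), although the ARNT libraries did not overlap.

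Of 7 hypoxia-responsive targets measured at day 2, BNIP3 rose and ADM fell. BNIP3, a receptor for the removal of mitochondria by autophagy (chr10:131966455-131982013, minus strand), was at 95.6, 103 and 106 CPM in the knockout, against 88.5, 82.7 and 79.8 CPM in the wild type. All knockout libraries were above the wild type, and BNIP3 rose by 0.27 on the log2 scale (SE 0.045, edgeR adjusted p 2.22e-05), a fold of 1.21 (95% interval 1.14 to 1.29). Its relative BNIP3L averaged 40.2 ± 2.54 CPM in the knockout and 39.6 ± 1.963 CPM in the wild type (SD, n = 3 each) and did not pass. ADM, which encodes the vasodilator peptide adrenomedullin (chr11:10304680-10307397, plus strand), was low in all libraries, with 5.32, 4.90 and 5.11 CPM in the knockout, against 6.87, 7.60 and 7.995 CPM in the wild type; it fell by 0.55 on the log2 scale (SE 0.13, edgeR adjusted p 0.00164). DDIT4, an inhibitor of mTORC1 signalling, was near the bottom of the range at 2.17, 2.38 and 3.26 CPM in the knockout, against 2.10, 2.21 and 1.76 CPM in the wild type, and did not pass (0.35, SE 0.22, edgeR adjusted p 0.258). NDRG1, MXI1 and FAM162A had overlapping libraries and did not pass either.

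**Figure D2:**
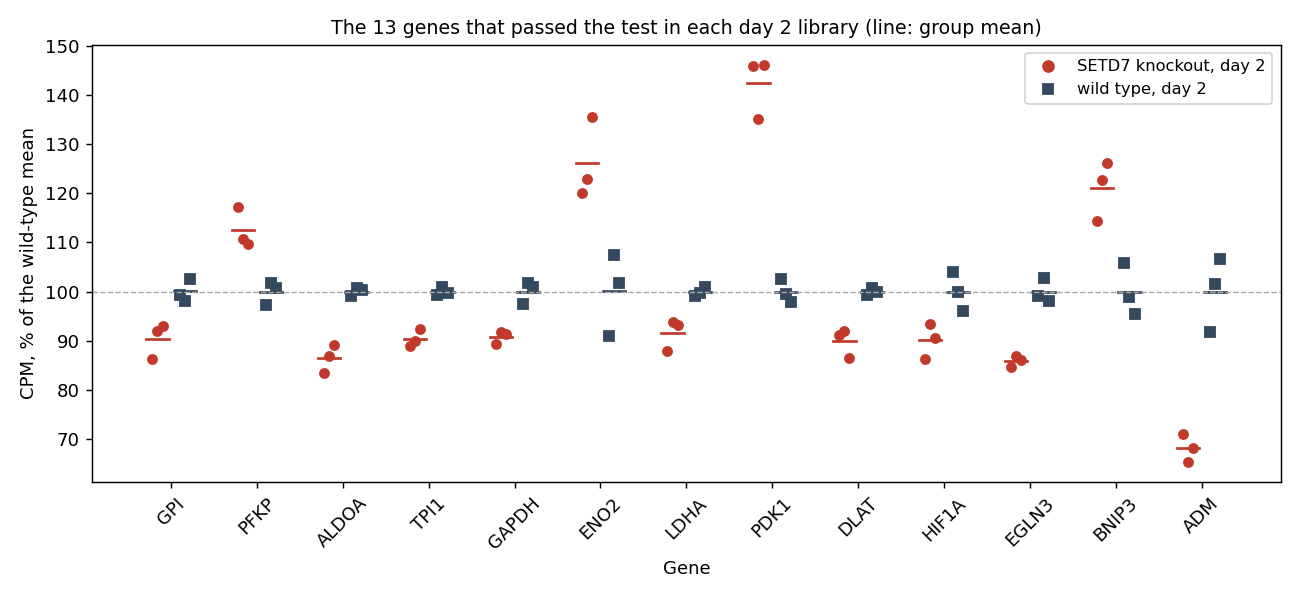
CPM in each day 2 library as a percentage of the wild-type mean for the 13 genes that passed the test (circles, SETD7 knockout; squares, wild type; lines, means of 3 libraries). The knockout and wild-type libraries are separate for all 13 genes, and PDK1 stands highest with a fold of 1.42.

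Some of these counts are uncertain for annotation reasons, since no source used here gives the counting tool or its use of strand. In GENCODE release 29, exons of another gene cover 33.4% of the LDHB exon length, 41.2% of DDIT4, 21.3% of PDHA1 and 14.2% of GAPDH. For ALDOA the overlaps with 2 other genes add up to 55.6%, where any base shared with both is counted for each. The largest overlap is on the same strand for ALDOA and LDHB, and on the opposite strand for DDIT4, PDHA1 and GAPDH. Pseudogenes named after the parent gene number 62 for GAPDH, 39 for BNIP3, 13 for PGAM1, 6 for LDHA and 5 for PKM, and reads from near-identical copies could have been split or dropped.

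At day 0, knockout and wild type were compared with 1 library per genotype, so the differences have no replicate check and no test. Most glycolytic genes had higher values in the knockout library. Of the 36 genes, 28 (77.8%) had a log2 ratio of FPKM + 1 above zero, against 46.2% of the 13282 genes with at least 1 FPKM in either library. A ratio of at least 1.2-fold was reached upwards by 16 genes, against 18.9% of all genes, and downwards by 4, against 26.5% of all genes, so 16 genes were within that ratio, which 45.4% of all genes passed in either direction. The median log2 ratio was 0.20 for the 36 genes and −0.03 for all genes. The 17 enzymes named above held 1.76% of the summed FPKM in the knockout library and 1.47% in the wild-type library.

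The preparatory enzymes were all above wild type. HK2 was at 36.0 FPKM in the knockout and 25.5 FPKM in the wild type, GPI at 86.2 and 62.9 FPKM, PFKP at 64.5 and 51.4 FPKM, and PFKFB3 at 14.8 and 11.6 FPKM in the same order. HK1 and PFKL were just past 1.2-fold with ratios of 1.21 each, and PFKM had a ratio of 1.03. In lower glycolysis, PGAM1 was at 406 FPKM in the knockout and 281 FPKM in the wild type, PKM at 503 and 348 FPKM, and ENO1 at 1220 and 995 FPKM. GAPDH was the most abundant of the 36 per unit length at 2146 FPKM in the knockout and 1869 FPKM in the wild type, a ratio of 1.15. PGK1, ALDOA, TPI1 and ALDOC had ratios of 1.19, 1.08, 1.06 and 1.04. Of the 9 genes of this stage, 3 were at least 1.2-fold higher and 5 were within that ratio. The other, ENO2, was lower, at 54.5 FPKM in the knockout and 75.5 FPKM in the wild type.

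The largest ratios at day 0 were at the pyruvate branch. PDK1 was at 8.47 FPKM in the knockout and 3.09 FPKM in the wild type, a log2 ratio of 1.21 that lay at the 99.5th percentile of all genes. That value depended on the pseudocount: it was 1.43 with 0.1 FPKM and 0.74 with 5 FPKM, below LDHA at 1.11 with 5 FPKM. LDHA was at 206 FPKM in the knockout and 92.5 FPKM in the wild type, a log2 ratio of 1.15 at the 99.3rd percentile. LDHB, the partner subunit, was at 896 FPKM in the knockout and 853 FPKM in the wild type, so LDHA made up 18.7% of the summed FPKM of both genes in the knockout and 9.78% in the wild type. DLAT was at 18.6 FPKM in the knockout and 12.8 FPKM in the wild type, while PDHA1, PDHB and PDK3 had ratios from 0.941 to 1.10.

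Hypoxia-responsive targets were divided at day 0. ANKRD37, an ankyrin-repeat gene induced by hypoxia, was at 3.28 FPKM in the knockout and 1.71 FPKM in the wild type, ADM at 20.1 and 14.6 FPKM, FAM162A at 27.2 and 21.5 FPKM and EGLN3 at 11.1 and 8.47 FPKM in the same order. DDIT4 was the lowest ratio of the 36, with 62.0 FPKM in the knockout and 139 FPKM in the wild type, at the 1.13th percentile. NDRG1, a gene of hypoxia and stress responses, was at 1.45 FPKM in the knockout and 3.21 FPKM in the wild type, and MXI1, an antagonist of MYC, at 6.11 and 7.93 FPKM. HIF1A (55.1 FPKM in the knockout, 47.6 FPKM in the wild type), ARNT, VHL, EGLN1, BNIP3 and BNIP3L were within 1.2-fold.

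**Figure D3:**
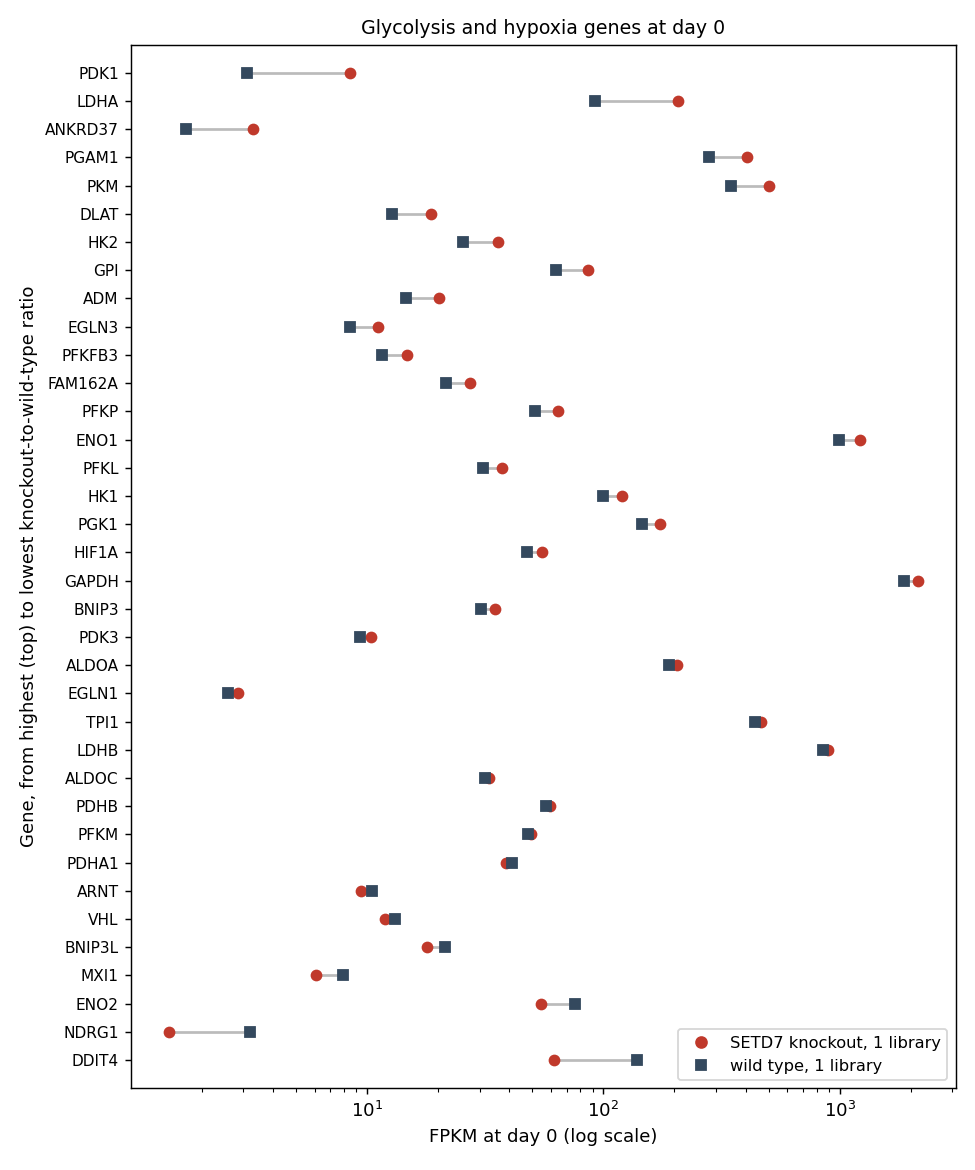
FPKM of the 36 genes at day 0 on a log axis (circles, SETD7 knockout; squares, wild type; 1 library each), ordered by the ratio of knockout to wild type. PDK1 and LDHA have the highest ratios (2.31 and 2.21 on the FPKM + 1 scale) and DDIT4 the lowest (0.449).

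The genotype differences of the 2 days come from separate libraries. Of the 35 genes measured on both days, 11 (31.4%) had the same sign, against 43.6% of all 10994 genes measured on both days. PFKL, PFKM, ENO1 and PKM are among the 11, and their small day 2 values turned negative with the GC and length offsets. Those offsets also moved the median log2 fold change of all genes, from −0.00262 to −0.0227. PDK1 and PFKP were the 2 genes called higher at day 2 and at least 1.2-fold higher at day 0; among all 10994 genes 1.8% were. GPI, LDHA, DLAT, EGLN3 and ADM fell at day 2 and were at least 1.2-fold higher in the knockout at day 0, and ENO2 rose at day 2 and was lower at day 0. These 6 of 35 genes compare with 7.09% of all 10994 genes that were called one way and passed 1.2-fold the other way, and EGLN3 was no longer past 1.2-fold at day 0 with a pseudocount of 5 FPKM. The 6 genes had no overlap between genotypes at day 2. The difference between days was not tested, because the tables hold different units and day 0 has no replicates. At day 0 the 8 pluripotency markers also differed between the libraries, with NANOG at 22.3 FPKM in the knockout and 13.7 FPKM in the wild type and SOX2 at 113 and 157 FPKM, and the part of such differences in the day 0 ratios was not tested.

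**Figure D4:**
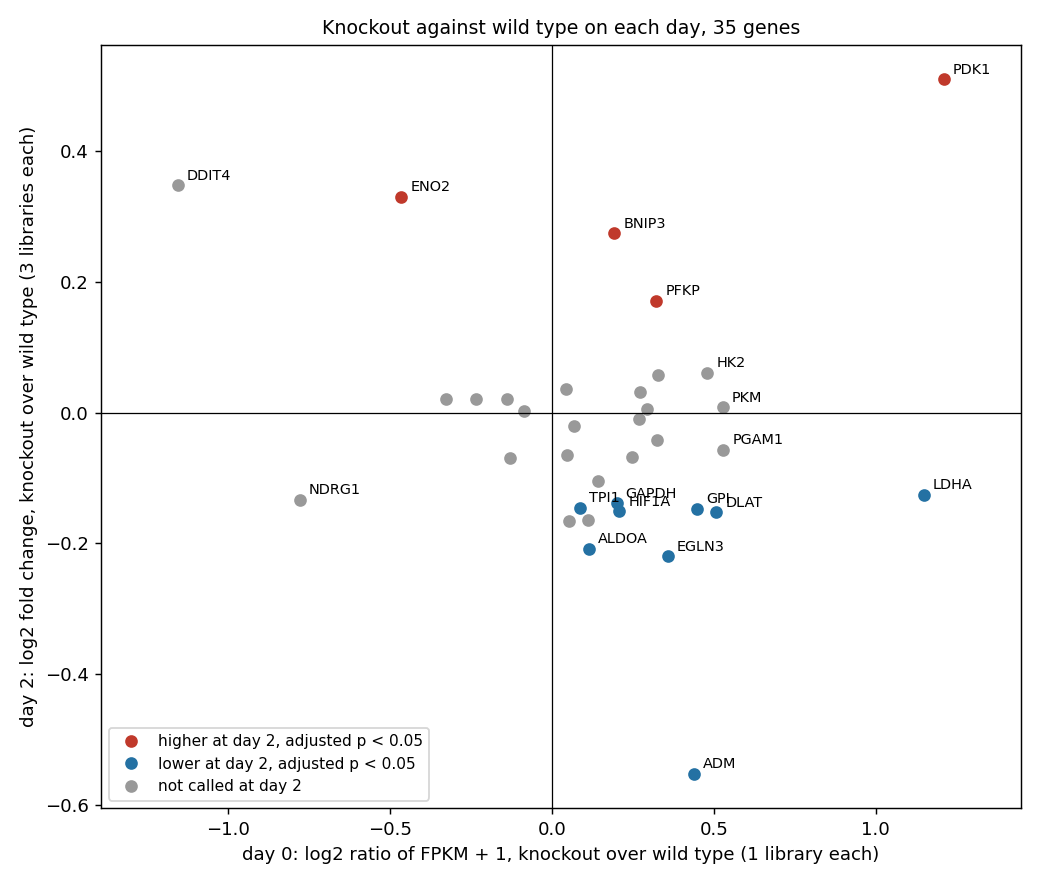
Log2 ratio at day 0 (horizontal, FPKM + 1, 1 library per genotype) against log2 fold change at day 2 (vertical, 3 libraries per genotype), knockout over wild type, for 35 genes (red, higher; blue, lower; grey, not passing at day 2). PDK1 lies furthest into the upper right at 1.21 and 0.51, and LDHA lies far right but below zero at 1.15 and −0.13.

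Isoenzyme balance was compared within each day 2 library as the share of a family in counts per kb of exon, a measure that does not depend on library scaling. PDK1 made up 72.2, 67.4 and 72.8% of PDK1 plus PDK3 in the knockout, against 60.7, 59.2 and 64.4% in the wild type, a difference of 9.4 percentage points. PFKP made up 57.8 ± 0.602% of the 3 phosphofructokinases in the knockout and 55.5 ± 0.507% in the wild type (SD, n = 3 each), while the PFKL and PFKM shares were lower. LDHA made up 24.62, 25.01 and 25.05% of the lactate dehydrogenase pair in the knockout, against 26.10, 26.36 and 26.39% in the wild type. ENO2 remained a minor enolase at 1.42 ± 0.0846% in the knockout and 1.13 ± 0.0694% in the wild type (SD, n = 3 each), and BNIP3 made up 67.1 ± 1.66% and 63.1 ± 2.35% of its pair in the same order. These 7 shares did not overlap between genotypes, whereas those of HK2, ALDOC and EGLN3 did. They are not 7 separate results, because the 3 phosphofructokinase shares add up to the whole in each library. PFKL and PFKM themselves did not pass at day 2 (log2 fold changes 0.031 and 0.037). The shares also come from the same counts as the day 2 calls, and 37.7% of all genes did not overlap by CPM. With 3 libraries against 3, the 2-sided exact permutation test cannot go below p = 0.1, which the 7 shares reached (0.143 adjusted over the 10 shares).

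**Figure D5:**
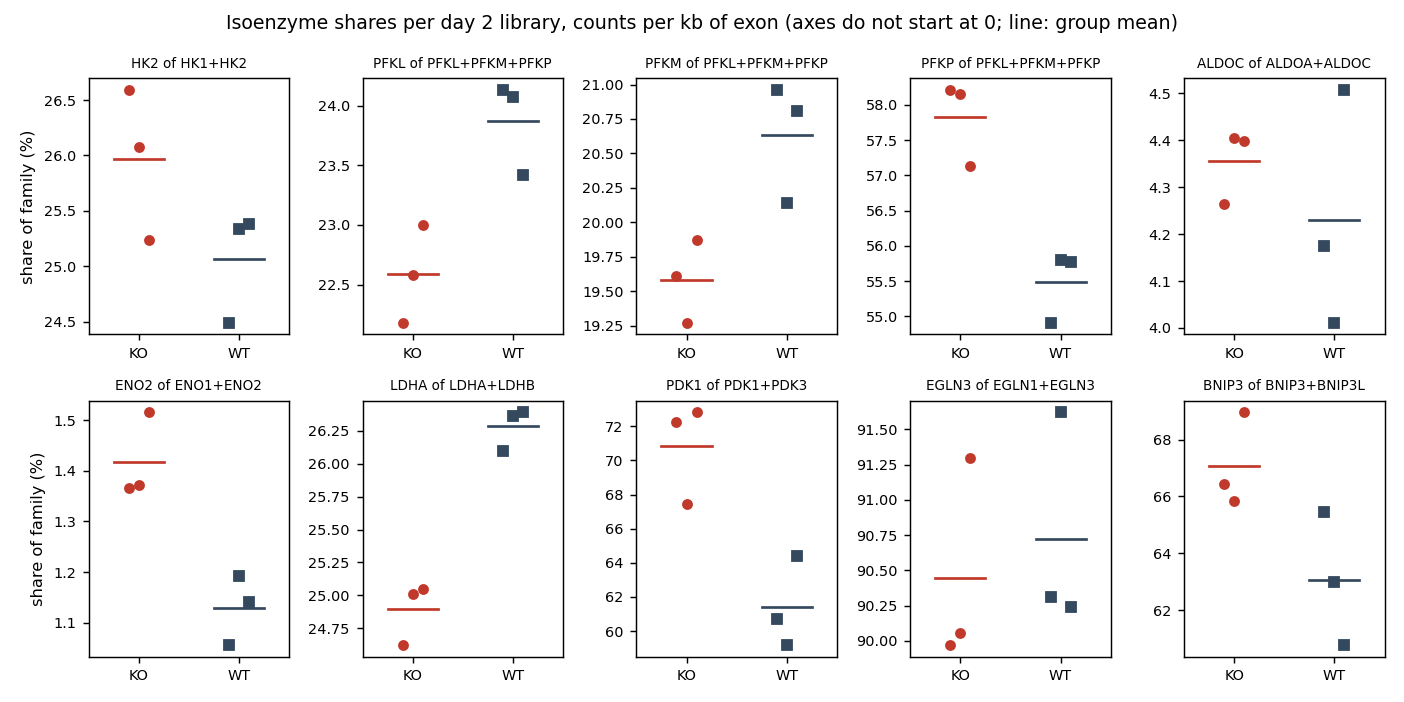
Share of each isoenzyme in its family per day 2 library, in percent of counts per kb of exon (circles, SETD7 knockout; squares, wild type; lines, means of 3 libraries; vertical axes do not start at zero). PDK1 shows the widest gap, with 67.4 to 72.8% in the knockout and 59.2 to 64.4% in the wild type.

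Neighbouring genes of the same pathways came from lists written alongside the 36. The background for each list was 12.3% of all genes called higher and 11.0% called lower. Of 14 further glycolytic enzymes, regulators and transporters tested at day 2, 4 rose and 1 fell. PGM1, which links glycogen and glucose 6-phosphate, was at 56.7 ± 0.0944 CPM in the knockout and 47.5 ± 1.02 CPM in the wild type (SD, n = 3 each; log2 fold change 0.26, edgeR adjusted p 0.000222). The lactate exporter SLC16A3 rose by 0.32 on the log2 scale (edgeR adjusted p 0.000776). It was also higher in the knockout at day 0, at 12.2 FPKM against 5.96 FPKM in the wild type. Of 8 further genes of pyruvate dehydrogenase and pyruvate transport, 3 fell and the other 5 did not pass. Pyruvate carboxylase, PC, fell by 0.25, the dehydrogenase subunit DLD by 0.13 and the mitochondrial carrier subunit MPC2 by 0.21 on the log2 scale (edgeR adjusted p 0.00525, 0.0208 and 0.0295), the last with overlapping libraries.

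Of 9 further HIF subunits and controllers, 1 rose and 2 fell. CITED2, which competes with HIF for its coactivators, was at 190 ± 1.83 CPM in the knockout and 241 ± 6.04 CPM in the wild type (SD, n = 3 each; −0.34, edgeR adjusted p 1.3e-09). The coactivator CREBBP fell by 0.20 and HIF3A rose by 0.23 on the log2 scale (edgeR adjusted p 0.000135 and 0.0345). CITED2 was also lower in the knockout at day 0, at 19.1 FPKM against 33.1 FPKM in the wild type. Of 27 further hypoxia-responsive genes, 8 rose and 4 fell, with a median log2 fold change of 0.08. PFKFB4, which fell, stood both in this list and in that of further glycolytic genes, and was counted in each. STC2, a secreted glycoprotein, rose by 0.42 on the log2 scale, and the transcriptional repressor BHLHE40 fell by 0.24 on that scale (edgeR adjusted p 5.22e-05 and 3.36e-05). Both had the opposite direction at day 0, where STC2 was at 14.9 FPKM in the knockout and 38.2 FPKM in the wild type and BHLHE40 at 4.38 and 2.16 FPKM in the same order.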

How the data were processed

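RNA-seq was used as deposited by the submitters. The tools HISAT2 and StringTie and the build GRCh38 are named, with no role or version, per the submitters' processing notes. No source used here gives the counting tool, its strand setting or the annotation release. The authors deposited whole-number counts for day 2, not normalized, and FPKM for day 0, per the file headers. Each day was compared within its own table.

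Day 2 counts were filtered with filterByExpr, scaled by TMM and fitted with edgeR 4.0.16 (robust quasi-likelihood F test, genotype as the only term, Benjamini-Hochberg over all genes) in R 4.3.3; SE was derived from the F statistic. Day 0 ratios were computed after adding 1 FPKM to each value, and a gene entered the background if either library reached 1 FPKM. Exon lengths, overlaps and pseudogenes came from GENCODE release 29, which 98.9% of day 2 symbols matched. Limma 3.58.1, DESeq2 1.42.0 and scipy 1.17.1 served the alternatives and permutation tests, and the edgeR steps were tested on simulated data. The members and lists were chosen with earlier results of these data known. All members were named, and of each further list up to 3 called genes with the smallest p; some of these further genes are not reported here.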

Additional observations from a re-analysis of the deposited data

Results flagged for a closer look

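In 6 genes the knockout libraries at day 2 all lay on one side of the wild type while the day 0 libraries differed by at least 1.2-fold the other way; the difference between the days was not tested, and day 0 has 1 library per genotype. The log2 values, day 2 first and day 0 second, were −0.15 and 0.45 for GPI, −0.13 and 1.15 for LDHA, −0.15 and 0.51 for DLAT, −0.22 and 0.36 for EGLN3, −0.55 and 0.44 for ADM, and 0.33 and −0.46 for ENO2. Among all 10994 genes measured on both days, 7.09% were called one way at day 2 and passed 1.2-fold the other way at day 0. With a pseudocount of 5 FPKM the EGLN3 ratio was 0.26, just under 1.2-fold.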

How the results depend on the processing

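The 13 calls and their directions held under DESeq2 size factors, upper-quartile scaling, no low-count filter, a minimum mean of 1 CPM, the DESeq2 Wald test and limma-voom, and leaving out 1 library at a time ended the call of GPI alone. With the replicate number as a block, 13 members and 2210 genes were called, against 2668 genes without it. Same-numbered libraries did not deviate together (correlations of −0.0728, −0.0721 and −0.0373), so no pairing by number was seen. With 3 libraries per genotype, these values cannot show whether a shared number meant a shared preparation. GC and length offsets raised the genes called lower to 2029 (1838 with the replicate block). They also moved the median log2 fold change of all genes from −0.00262 to −0.0227 (−0.0225 with the block). The cause was not tested. The call of at least 1.2-fold left 4 members. At a day 0 ratio of 1.5-fold, 1 member, LDHA, was opposite on the 2 days. Signs turned for no gene that passed. HK1 reached 0.0065 under upper-quartile scaling. Under the offsets, without and with the block, PFKL was −0.0589 and −0.0588, PFKM −0.0041 and −0.0048, ENO1 −0.0292 and −0.0291, PKM −0.0450 and −0.0451, and PDHA1 −0.0102 and −0.0102. Leaving out 1 library gave ranges of −0.0269 to 0.0085 for HK1, −0.0131 to 0.0182 for ENO1, −0.0016 to 0.0133 for PKM, −0.0136 to 0.0193 for PDHA1, −0.0324 to 0.0598 for BNIP3L, −0.0192 to 0.0847 for MXI1, −0.0080 to 0.0491 for VHL and −0.0336 to 0.000605 for LDHB. The EGLN3 share difference ranged from −0.708 to 0.171 points. Among day 0 ratios, 6 crossed the 1.2-fold line with another pseudocount or with centring. With pseudocounts of 0.1 and 5 FPKM, ANKRD37 was 0.90 and 0.30, and NDRG1 −1.09 and −0.35. Day 0 has no replicates and unknown depth.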

Other observations

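Neighbouring routes of carbon use were also read at day 2, where 12.3% of all genes were called higher and 11.0% lower. Of 7 pentose phosphate genes, 3 fell and 1 rose. PGD, the second oxidative enzyme, was at 301 ± 4.93 CPM in the knockout and 331 ± 8.12 CPM in the wild type (SD, n = 3 each; −0.14, edgeR adjusted p 0.00161) and the epimerase RPE rose by 0.14 on the log2 scale (edgeR adjusted p 0.0228). Of 17 citric acid cycle genes, 1 rose and 1 fell, SUCLG2 (0.23, edgeR adjusted p 0.00186) and OGDH (−0.17, edgeR adjusted p 0.00177). At day 0 RPE was at 31.3 FPKM in the knockout and 15.4 FPKM in the wild type, and 1 of the 17 cycle genes was at least 1.2-fold higher and 1 lower.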
